A study of Mus musculus with 10 samples.

Results

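Binding of the glucocorticoid receptor (GR) and of lysine-specific demethylase 1 (LSD1) was examined at 10 genes of the neuromuscular junction and of the response of muscle to loss of its nerve. They were the acetylcholine receptor subunit genes Chrna1, Chrnb1, Chrnd, Chrne and Chrng, the genes Musk, Lrp4 and Dok7, which encode the receptor complex that clusters these receptors, and the regulator genes Hdac4 and Runx1. The rule that chose them uses no measured value, and they are 10 of the 26180 mouse genes with a curated RefSeq transcript. A peak was counted at a gene when its midpoint lay in the gene body or within 30 kb of a transcription start site (TSS), on the build GRCm38 (mm10).

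The data were chromatin immunoprecipitation sequencing (ChIP-seq) peak lists from skeletal muscle of C57BL/6J mice aged 10 weeks according to the labels, which were either fed or starved for 24 h. No genotype and no treatment other than feeding is named in the labels, and the study gives its mice as male. In each condition 1 library was made for GR, for LSD1, for histone H3 monomethylated at lysine 9 (H3K9me1), for the dimethylated form (H3K9me2) and for input chromatin, so no difference between fed and starved muscle has a replicate check and none was tested. The labels do not say how many mice stand behind a library.

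The neuromuscular junction is the contact between a motor axon and a muscle fibre. At this contact agrin from the nerve binds Lrp4, which activates the kinase MuSK; Dok7 binds MuSK inside the fibre and sustains its activity, and acetylcholine receptors gather beneath the nerve ending. In an innervated adult fibre most receptor genes are active mainly in the few nuclei at the junction. After denervation several receptor genes, though not all, are switched on along the fibre through myogenin. The histone deacetylase Hdac4 and the transcription factor Runx1 are among the regulators that rise. GR is the nuclear receptor of glucocorticoids, hormones that increase in starvation, and LSD1 removes methyl groups from histone H3.

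The 8 lists held between 6624 peaks in H3K9me2 starved and 171402 in H3K9me2 fed. The LSD1 starved list held 66332 peaks against 16616 in LSD1 fed. It is many times larger than the one the study's text describes and may be another version, and every LSD1 starved value here rests on it. The highest q-value in a list lay between 0.0925 and 0.0998, and numbers of reads were not in the files, so library depth is unknown. The labels carried 2 library codes. Both GR libraries and both inputs shared one code and both LSD1 libraries the other, whereas each histone mark had one code in fed and the other in starved muscle, so for the marks the code cannot be told apart from the condition. Promoter peaks, with a midpoint between 1000 bp upstream of a TSS and 100 bp past it, were present at 5, 6, 6 and 6 of 8 skeletal muscle markers in the GR lists (fed, then starved) and the LSD1 lists (fed, then starved). Schwann cell and nerve markers had 0, 0, 0 and 1 of 6, endothelial and blood markers 0, 0, 0 and 1 of 4, and liver markers 0, 0, 0 and 1 of 3. By the wider window used for the members, all 8 muscle markers had a peak in each of these lists. Schwann cell and nerve markers then had 2, 4, 3 and 5 of 6, and endothelial and blood markers 3, 3, 2 and 4 of 4. Liver markers had 2, 2, 2 and 3 of 3, so a peak in that window is not particular to muscle genes. In bulk tissue a peak does not show which nuclei carried it, and fewer nuclei of a type and less binding per nucleus cannot be told apart.

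GR peaks were found at 8 of the 10 genes in fed muscle and at all 10 in starved muscle, and LSD1 peaks at 9 and 10. These counts stand beside wide backgrounds. Among all RefSeq genes, 43.1% had a GR peak in the same kind of window in fed muscle and 66.5% in starved muscle, and 51.1% and 83.7% had an LSD1 peak. Chrna1 and Chrnd were the members with no GR fed peak, and Chrna1 had no LSD1 fed peak either. GR and LSD1 were both called at 8 of the 10 genes in fed muscle, against 37.1% of all genes. In starved muscle both were called at all 10, against 61.0%. Across RefSeq, 11285 genes had GR in fed muscle and 9719 of them also had LSD1, so joint calls were common outside the members too. Long windows hold peaks more often, and 3 members, Musk, Hdac4 and Runx1, had windows of at least 100 kb. Of the 3630 genes with such windows 51.6%, 77.2%, 57.1% and 94.7% had a peak in these lists, in the order GR fed and starved, LSD1 fed and starved.

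With only peaks at a q-value of 0.01 or less, members with a GR peak numbered 8 in fed and 7 in starved muscle, against 33.6% and 40.6% of all genes. For LSD1 the same filter left 6 members in fed and 4 in starved muscle, against 32.4% and 24.0%. The GR fed calls at the members therefore kept the count of genes under the stricter filter, and of the 28 GR fed peaks 25 passed it (89.3%, against 70.4% of the whole list). Of the 32 LSD1 starved peaks 4 passed it (12.5%, against 10.2%).

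**Figure D1:**
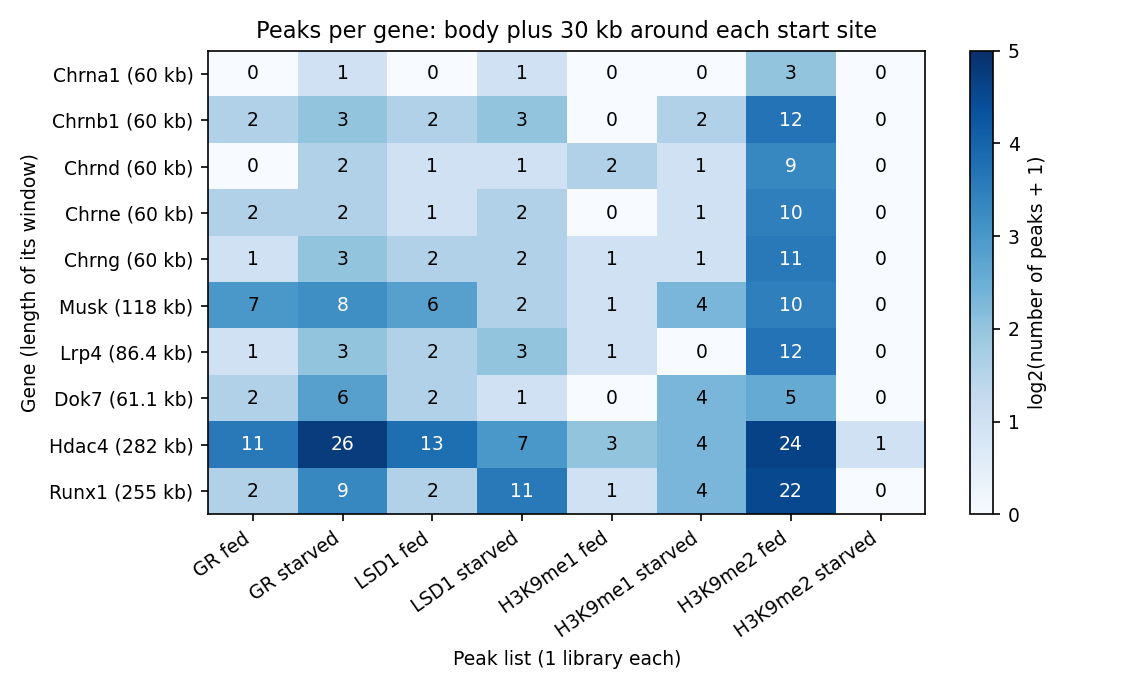
Number of peaks at each of the 10 genes (rows, with the length of the window) in each of the 8 lists (columns, 1 library each); colour gives log2(number of peaks + 1) and the printed figure is the count itself. Hdac4 held 11 GR fed, 26 GR starved and 13 LSD1 fed peaks, Musk 7, 8 and 6, and H3K9me2 peaks were called at every gene in fed muscle and at Hdac4 alone in starved muscle.

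Counted once each, 28 GR peaks of fed and 61 of starved muscle, and 30 LSD1 peaks of fed and 32 of starved muscle, lay in the windows of the members, which span 1.06 Mb. Per 100 kb of window this came to 2.65 GR fed peaks (exact Poisson 95% interval 1.76 to 3.83, counting error only), against 0.819 over the windows of all genes, a ratio of 3.23. GR starved peaks had 5.77 per 100 kb (4.41 to 7.41) against 2.14, a ratio of 2.70. LSD1 peaks had 2.84 per 100 kb in fed muscle (1.91 to 4.05) against 0.995, a ratio of 2.85, whereas in starved muscle they had 3.03 (2.07 to 4.27) against 2.89, a ratio of 1.05. The GR fed, GR starved and LSD1 fed lists were thus denser at these genes than over all windows, and the LSD1 starved list was close to them. Hdac4 alone held 11, 26, 13 and 7 of these peaks, and without it the ratios were 2.67, 2.11, 2.20 and 1.11.

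**Figure D2:**
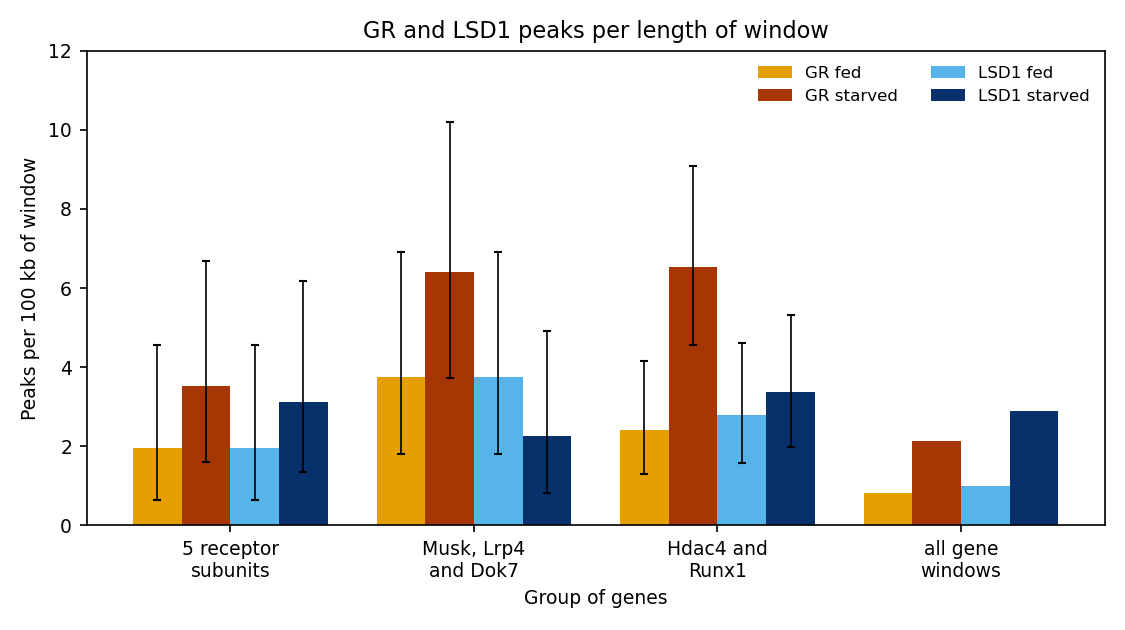
Peaks per 100 kb of window (y axis) for the receptor subunit genes, for Musk, Lrp4 and Dok7, for Hdac4 and Runx1 and for the windows of all genes, with 1 bar per list and lines for exact Poisson 95% intervals (counting error only). The GR fed bar stands at 1.96, 3.76 and 2.42 in the 3 groups and at 0.819 over all windows, and the LSD1 starved bar at 3.13, 2.26 and 3.36 against 2.89.

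Most GR peaks at the members were intronic. In fed muscle 25 of 28 lay in an intron of some gene and 23 lay inside a member itself, and in starved muscle 50 of 61 and 51. For LSD1 19 of 30 fed and 20 of 32 starved peaks were intronic. The window takes in the whole gene body, which favours introns of long genes. Of the 28 GR fed peaks 17 lay more than 30 kb from a TSS of the member and counted only because they lay in its body. No intronic share of the whole lists was set beside these counts. The median fold enrichment over input was 3.75 for GR fed (3.29 over the whole list), 2.73 for GR starved (2.70), 4.01 for LSD1 fed (4.03) and 3.49 for LSD1 starved (3.44). The GR fed peaks at these genes were thus the set whose median fold lay furthest above its list. Their median length was 202 bp, against 277 bp over the list, and the part of peak length in the fold was not tested.

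Promoter peaks were called at 1 to 4 of the 10 members in the GR and LSD1 lists. GR fed had a promoter peak at Musk only, 1 of 10 members against 13.4% of all genes. GR starved had one at Chrnd, Chrne and Hdac4, 3 of 10 against 23.3%. LSD1 fed had promoter peaks at Chrnb1, Musk, Dok7 and Hdac4, 4 of 10 against 22.4%, and LSD1 starved at Chrnb1, Hdac4 and Runx1, 3 of 10 against 16.2%. No promoter held GR in both conditions, and Chrnb1 and Hdac4 held LSD1 in both.

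The promoter sequences on which these calls bear are shown as the 250 bases upstream of the TSS, from RefSeq on GRCm38.p6, 5′ to 3′ on the strand of the gene, with E-boxes (CANNTG, the letters read by myogenin and MyoD) and the N-box (CCGGAA, read by ETS factors) in capitals. They are the promoters with a GR or LSD1 peak, of those in the table, other than that of Dok7.
Musk (chr4:58285712-58285961, plus strand): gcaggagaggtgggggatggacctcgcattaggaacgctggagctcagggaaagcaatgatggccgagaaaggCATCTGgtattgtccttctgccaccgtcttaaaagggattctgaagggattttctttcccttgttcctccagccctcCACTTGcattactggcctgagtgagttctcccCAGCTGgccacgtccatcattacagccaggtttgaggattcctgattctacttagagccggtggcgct
Chrnb1 (chr11:69795938-69796187, minus strand): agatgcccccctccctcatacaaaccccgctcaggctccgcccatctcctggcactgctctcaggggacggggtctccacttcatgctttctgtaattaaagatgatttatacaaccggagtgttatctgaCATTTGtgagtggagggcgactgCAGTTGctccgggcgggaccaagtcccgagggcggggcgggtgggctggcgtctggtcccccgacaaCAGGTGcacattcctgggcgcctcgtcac
Chrne (chr11:70619195-70619444, minus strand): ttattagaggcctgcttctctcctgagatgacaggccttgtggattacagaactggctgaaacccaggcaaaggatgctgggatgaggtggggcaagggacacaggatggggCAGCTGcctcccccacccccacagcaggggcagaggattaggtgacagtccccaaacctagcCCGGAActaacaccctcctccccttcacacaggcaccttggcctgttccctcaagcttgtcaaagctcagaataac
Hdac4 (chr1:92180342-92180591, minus strand): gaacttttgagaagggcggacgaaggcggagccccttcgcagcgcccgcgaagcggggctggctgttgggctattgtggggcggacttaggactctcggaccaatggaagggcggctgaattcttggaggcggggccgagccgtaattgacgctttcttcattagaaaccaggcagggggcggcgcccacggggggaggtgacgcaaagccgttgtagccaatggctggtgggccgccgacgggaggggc
Runx1, proximal TSS (chr16:92697330-92697579, minus strand): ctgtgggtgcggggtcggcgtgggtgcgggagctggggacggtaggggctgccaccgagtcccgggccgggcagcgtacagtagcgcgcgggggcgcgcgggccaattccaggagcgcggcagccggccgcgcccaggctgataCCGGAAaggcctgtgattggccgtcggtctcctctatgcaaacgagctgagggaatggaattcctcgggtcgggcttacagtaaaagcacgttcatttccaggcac
The RefSeq table held promoters of 8 of the 10 genes, 10 promoters in all. Chrnd and Lrp4 had no entry. An E-box was present in 7 of these 10 promoters, against 66.2% of all promoters in the table, a share near the background. The E-box with a GC core, CAGCTG, was present in 4 of the 10, those of Chrna1, Chrne, Chrng and Musk, against 13.0%. CCGGAA, searched on both strands, was present in 2 of the 10, those of Chrne and of the proximal TSS of Runx1, against 12%. Neither TGTGGT, the letters read by Runx1, nor the GR half-site AGAACA was present in any of the 10 promoters, against 14.0% and 16.1% of all promoters. These are matches of letters and not binding sites.

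Among the receptor subunits, Chrnb1 (chr11:69784036-69795937, minus strand), the gene of the beta subunit, carried the clearest calls at its own start. In the LSD1 fed list a peak of 99 bp lay 6 bp downstream of the TSS (chr11:69795882-69795980, fold 4.94, q = 6.41e-04), and a further one lay in intron 2. The LSD1 starved peak at the TSS was longer, 290 bp, with fold 3.68 and q = 0.0441. GR fed lay beside the LSD1 peak at the TSS and overlapped the LSD1 fed peak in intron 2 (fold 3.99, q = 0.0118). The GR fed peak lay 509 bp downstream of the TSS in intron 2 (chr11:69795367-69795490, fold 3.00, q = 3.59e-04), and the GR starved peak of 608 bp reached from there to the TSS (fold 2.52, q = 0.0228). Of the 3 E-boxes in the printed promoter, CAGGTG at 29 bp upstream lay inside both LSD1 peaks at the TSS. The others lay inside the longer LSD1 starved peak alone. The remaining GR and LSD1 peaks of its window lay near the starts of other genes, Zbtb4, Fgf11 and G630025P09Rik.

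Chrne (chr11:70614883-70619194, minus strand) encodes the epsilon subunit of the adult receptor. In fed muscle GR and LSD1 were called together 3.01 kb upstream of its TSS, GR with fold 4.01 (chr11:70622126-70622274, q = 2.02e-05) and LSD1 with fold 4.31 (q = 0.00485). Neither starved list had a peak overlapping this site. In starved muscle a GR peak of 134 bp was called on the promoter instead, 16 bp upstream of the TSS, with fold 2.81 and q = 0.0178. The fed list had none there. This peak covered the N-box of the printed promoter, 76 bp upstream of the TSS, and not its E-box at 138 bp. The 200 bases around the midpoint of the upstream GR fed peak, on the plus strand with CAGCTG in capitals, were as follows.
Chrne 3.01 kb upstream (chr11:70622101-70622300): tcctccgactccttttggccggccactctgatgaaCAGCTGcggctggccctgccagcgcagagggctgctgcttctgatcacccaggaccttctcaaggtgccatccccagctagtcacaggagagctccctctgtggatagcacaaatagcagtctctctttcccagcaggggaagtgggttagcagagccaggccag

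Chrng (chr1:87205811-87211835), which encodes the gamma subunit of the fetal receptor, and Chrnd (chr1:87190597-87200070), which encodes the delta subunit, are neighbours whose windows overlap and share peaks. Chrnd had a GR starved peak of 560 bp over its TSS (fold 2.70, q = 0.0326) and none in fed muscle. For Chrng the GR fed peak lay 21.5 kb downstream (fold 3.85, q = 4.02e-06), where GR starved (fold 2.93) and LSD1 fed (fold 3.86) were also called, but the nearest TSS there was that of Eif4e2. Inside Chrng itself the only GR or LSD1 peak was LSD1 starved, 61 bp in intron 5 with fold 4.63 and q = 0.00201. The gene of the alpha subunit, Chrna1 (chr2:73563281-73580338, minus strand), had 1 GR starved and 1 LSD1 starved peak, at folds of 2.55 and 3.35 and at q-values of 0.0627 and 0.0748. Both were upstream of it and nearer to Chn1os3. Over the 5 subunit genes 1 of the 5 GR fed and 2 of the 5 LSD1 fed peaks lay in the body of a subunit gene.

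Musk (chr4:58285962-58374303, plus strand), the gene of the muscle-specific receptor kinase, had 7 GR fed and 8 GR starved peaks, and 6 LSD1 fed and 2 LSD1 starved peaks. Of all genes, 1.14% had at least 7 GR fed peaks, 7.95% at least 8 GR starved, 3.20% at least 6 LSD1 fed and 62.9% at least 2 LSD1 starved peaks. The Musk window is 118 kb, against a median of 60.0 kb over all genes. The list in which Musk stood lowest was therefore LSD1 starved.

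The site with the largest ratio of starved to fed GR fold lay in intron 1 of Musk, 2.98 kb downstream of the TSS. Its fold was 3.89 in fed muscle (q = 6.07e-06) and 6.65 in starved muscle (chr4:58288823-58289108, q = 1.89e-23), a ratio of 1.71 that 0.323% of the 9287 overlapping GR pairs reached. No LSD1 peak overlapped it in either condition. A second site, in intron 7 at 50.5 kb, had GR in both conditions, with fold 5.54 in fed (q = 2.76e-16) and 4.82 in starved muscle (q = 1.04e-11), and LSD1 in fed muscle only (fold 3.69). Sites of GR with LSD1 were called at 64.4 and 65.4 kb, in intron 9, in fed muscle (GR folds 4.24 and 4.35, LSD1 folds 4.11 and 3.47) and in neither starved list. At 5.55 kb upstream GR starved (fold 3.28) met LSD1 fed (fold 4.16).

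At the Musk promoter the 3 fed peaks stood side by side without overlapping. LSD1 was called 520 bp upstream (fold 3.65) and 68 bp upstream of the TSS (fold 5.05, q = 2.10e-04), and GR between them, 231 bp upstream (fold 3.37, q = 0.00130). The LSD1 peak at 68 bp covered 2 of the 3 E-boxes printed above, CACTTG at 100 bp and CAGCTG at 68 bp upstream of the TSS. The starved lists had no peak on this promoter.

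The sequences around the midpoints of both intronic GR sites of Musk are printed as 200 bases of the plus strand, with CAGCTG and the GR half-site (AGAACA, or TGTTCT on the other strand) in capitals. The first had the highest starved fold of any GR peak at the members and the second the lowest q-value of the GR fed peaks of Musk.
Musk 3.00 kb, GR starved (chr4:58288866-58289065): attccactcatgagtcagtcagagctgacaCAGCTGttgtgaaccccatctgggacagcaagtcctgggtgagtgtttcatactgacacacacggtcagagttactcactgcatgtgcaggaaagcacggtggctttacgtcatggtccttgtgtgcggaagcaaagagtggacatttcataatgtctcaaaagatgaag
Musk 50.5 kb, GR fed (chr4:58336349-58336548): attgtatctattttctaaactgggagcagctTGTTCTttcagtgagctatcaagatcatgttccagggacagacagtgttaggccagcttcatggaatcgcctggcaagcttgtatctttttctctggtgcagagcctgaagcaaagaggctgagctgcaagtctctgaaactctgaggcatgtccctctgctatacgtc

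Dok7 (chr5:35056766-35087839, plus strand), the gene of the adaptor that holds MuSK active, had 2 GR fed and 6 GR starved peaks, all intronic, and 2 LSD1 fed and 1 LSD1 starved peaks. The main site lay in intron 4. In fed muscle the GR peak was 205 bp long, 16.3 kb downstream of a TSS, with fold 6.72 and q = 2.30e-17. In starved muscle a peak of 1454 bp overlapped it and reached further into the intron, with fold 4.00 and q = 1.06e-07. In a broad peak list the fold of a peak is an average over its length, so that the narrow and the long call are not the same measurement. LSD1 fed was called within the long GR starved peak, at 17.1 kb (fold 4.21), beside the narrow GR fed peak rather than on it. A GR fed peak in intron 8 (28.0 kb, fold 4.96, q = 3.73e-09) had no overlapping peak in any of the other 7 lists. LSD1 fed was called at the start of the gene, in exon 1 (chr5:35056920-35057026, fold 4.05, q = 0.00676).
Dok7 16.3 kb, GR fed, CAGCTG in capitals (chr5:35073310-35073509): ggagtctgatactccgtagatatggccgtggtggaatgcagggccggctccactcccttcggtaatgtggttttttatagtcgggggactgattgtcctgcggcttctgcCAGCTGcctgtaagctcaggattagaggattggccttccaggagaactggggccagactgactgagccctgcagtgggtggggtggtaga

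Lrp4 (chr2:91457531-91513901, plus strand), the gene of the agrin receptor, had its GR calls in intron 1. A GR fed peak of 1353 bp lay 3.56 kb downstream of the TSS (fold 3.64, q = 2.88e-04). It was overlapped by a GR starved peak (fold 2.69), an LSD1 fed peak (fold 4.01) and an H3K9me2 fed peak, and further GR starved peaks lay at 1.33 and 2.70 kb (folds 2.54 and 3.06). The LSD1 peak present in both conditions in its window, with fold 5.05 in fed and 4.02 in starved muscle, sat on the promoter of the neighbour 1110051M20Rik. The remaining LSD1 starved peaks, at 39.8 and 41.3 kb, were 50 and 49 bp long.

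Hdac4 (chr1:91928779-92180341, minus strand), the histone deacetylase gene, carried more GR and LSD1 fed peaks than nearly all other genes. Of all genes, 0.176% had at least its 11 GR fed peaks, 0.111% at least its 26 GR starved peaks and 0.107% at least its 13 LSD1 fed peaks. Its window is 282 kb, and among the 1212 genes with windows of at least 200 kb the shares were 2.15%, 1.57% and 1.24%. Its 7 LSD1 starved peaks did not stand out, since 65.4% of the long genes had as many. All 11 GR fed peaks were intronic, between 49.7 and 213 kb downstream of the TSS, 5 of them in intron 2 and 3 in intron 3. Of these 11 peaks 6 were overlapped by LSD1 fed.

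The strongest GR fed peak of all members lay in intron 2 of Hdac4 at 80.7 kb (chr1:92099553-92099799, fold 6.78, q = 3.36e-21), with a second at 79.6 kb (fold 5.18, q = 2.07e-13). LSD1 fed was called on both, with folds of 5.00 and 3.64. In starved muscle a single GR peak of 1255 bp overlapped both sites, with fold 3.57 and q = 1.16e-06, and LSD1 starved was not called there. A site in intron 3 at 150 kb went the other way. Its GR fold was 3.53 in fed (q = 4.89e-04) and 5.19 in starved muscle (chr1:92030130-92031349, q = 7.11e-14), a ratio that 0.894% of the GR pairs reached, and no LSD1 peak overlapped it. At 131 kb GR had folds of 5.27 in fed and 4.19 in starved muscle and LSD1 fed a fold of 4.41.
Hdac4 80.7 kb, GR fed, CAGCTG in capitals (chr1:92099577-92099776): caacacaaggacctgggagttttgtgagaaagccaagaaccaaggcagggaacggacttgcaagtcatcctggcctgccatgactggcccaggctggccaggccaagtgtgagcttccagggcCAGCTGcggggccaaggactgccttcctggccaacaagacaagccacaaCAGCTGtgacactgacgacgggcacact
Hdac4 150 kb, GR starved, AGAACA in capitals (chr1:92030640-92030839): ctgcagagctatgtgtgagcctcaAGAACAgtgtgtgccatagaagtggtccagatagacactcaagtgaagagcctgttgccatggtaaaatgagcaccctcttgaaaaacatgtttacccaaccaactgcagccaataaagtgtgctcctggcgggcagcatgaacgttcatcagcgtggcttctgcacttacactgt

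At the Hdac4 promoter LSD1 was called in both conditions, but at different bases. The LSD1 fed peaks lay 130 and 746 bp upstream of the TSS (folds 3.74 and 3.75), and the LSD1 starved peak, 87 bp long, lay between them at 302 bp (fold 4.24, q = 0.00169). GR starved overlapped all 3 with a peak of 783 bp (fold 2.75, q = 0.00622), and H3K9me2 fed had a peak 418 bp upstream (fold 2.90, q = 0.0500). GR fed was not called there.

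Runx1 (chr16:92601466-92826074, minus strand), a transcription factor gene with a distal and a proximal TSS, had 2 GR fed and 9 GR starved peaks, and 2 and 11 LSD1 peaks in the same order. All GR peaks in both conditions lay between 19.1 and 88.6 kb downstream of the proximal TSS. The site at 85.5 kb, in intron 7, had GR in fed (chr16:92611565-92612074, fold 4.99, q = 3.80e-12) and starved muscle (fold 4.22, q = 2.75e-09) and LSD1 in fed muscle (fold 4.01, q = 0.0201). The nearest TSS to this site was that of Gm30224, 15.7 kb away. The LSD1 starved peaks were spread differently. Of the 11, 4 lay downstream of the proximal TSS, 1 lay 137 bp upstream of it, over the N-box printed above (fold 3.47, q = 0.0437), 4 lay between both start sites and 2 upstream of the distal one. One of these LSD1 starved peaks overlapped a GR starved peak, at 19.0 kb, where 9.14% of the whole LSD1 starved list did so. Runx1 was the member with most LSD1 starved peaks, and 34.4% of genes with windows of at least 200 kb had as many.

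**Figure D3:**
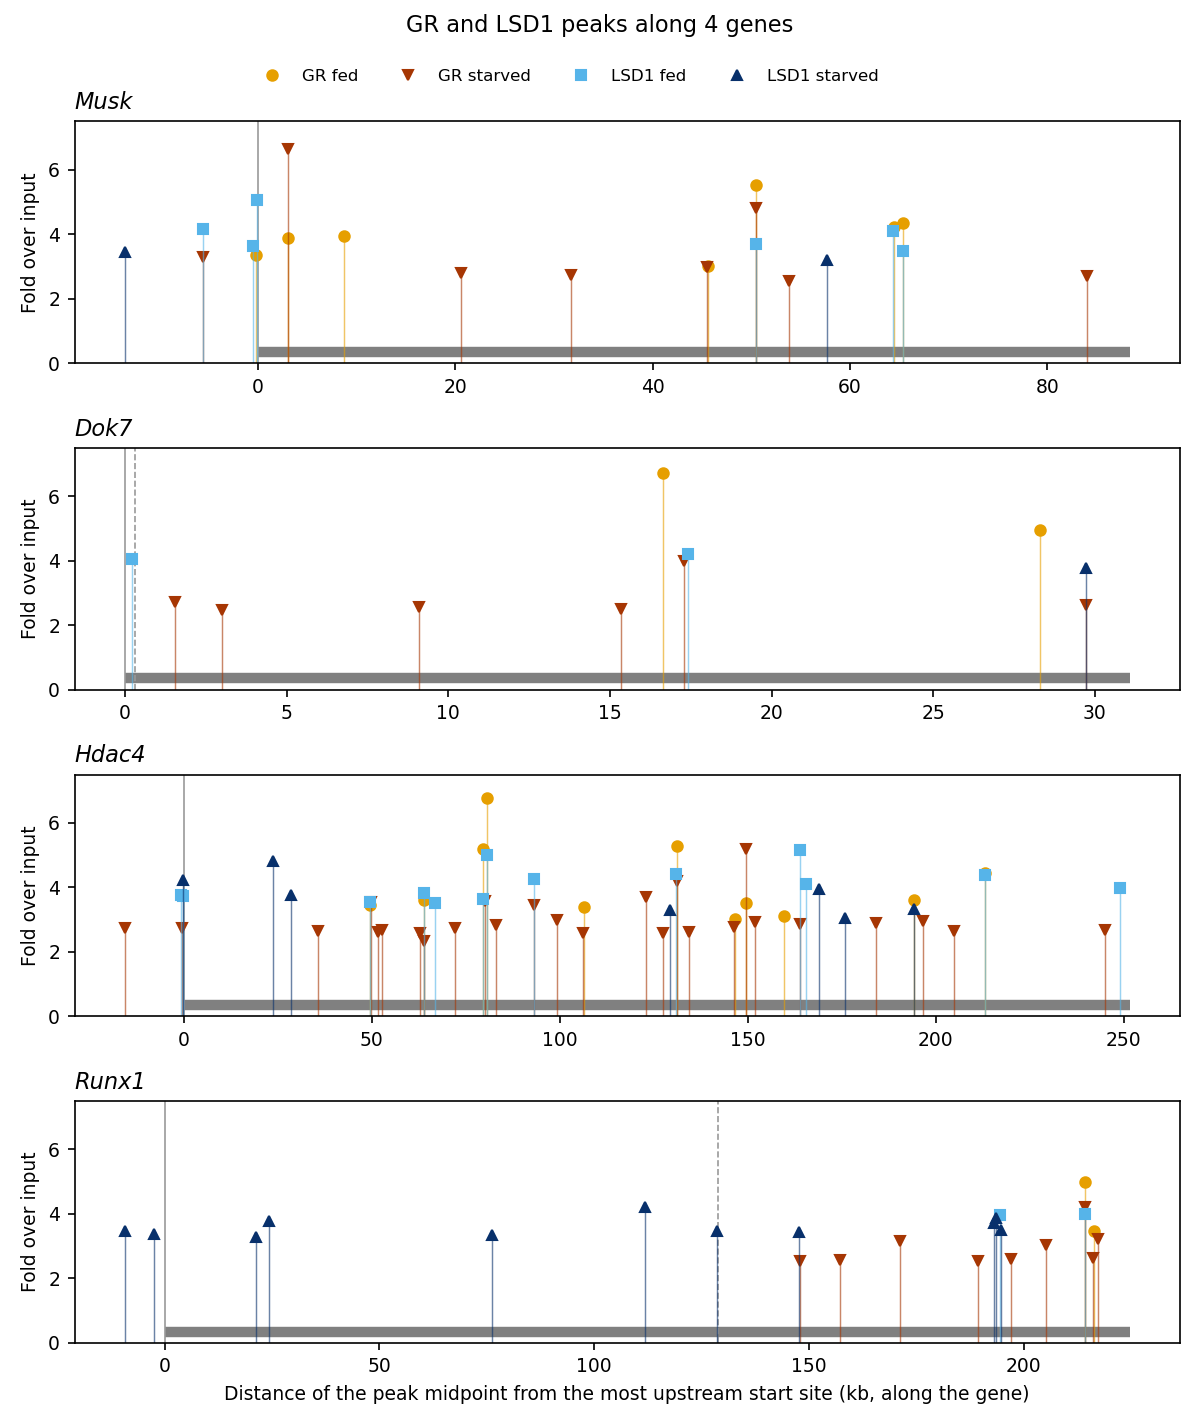
Peaks of the GR and LSD1 lists along Musk, Dok7, Hdac4 and Runx1: the x axis gives the distance of the peak midpoint from the most upstream TSS in kb along the gene, the y axis the fold enrichment over input, the grey bar the gene body, the solid line that TSS and the dashed lines other start sites. The tallest symbols are GR starved at the start of Musk (6.65), GR fed in Dok7 (6.72) and GR fed in Hdac4 (6.78), and the GR symbols of Runx1 are all downstream of its dashed line.

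Sharing between lists was set beside the same share over the whole list. Of the 28 GR fed peaks 14 were overlapped by LSD1 fed (50%, exact binomial 95% interval 30.6 to 69.4, against 48.3% of the list), and GR fed overlapped 14 of the 30 peaks of LSD1 fed (46.7%, against 42.8%). In starved muscle 5 of the 61 GR peaks were overlapped by LSD1 (8.20%, 2.72 to 18.1, against 14.7%) and 5 of the 32 LSD1 peaks by GR (15.6%, against 9.14%). The share was higher in fed than in starved muscle at these genes as over the whole lists, and in both conditions the interval held the share of the list. With a q-value of 0.01 or less in both lists, 4 of 25 GR fed peaks (16.0%) were overlapped by LSD1 fed. That filter kept 25 of the 28 GR fed but only 11 of the 30 LSD1 fed peaks, which by itself lowers the share. The share of the whole list under the same filter was not computed.

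Between conditions 19 of the 28 GR fed peaks were overlapped by GR starved (67.9%, 47.6 to 84.1, against 65.8%). For LSD1 2 of the 30 fed peaks were overlapped by LSD1 starved (6.67%, 0.818 to 22.1, against 23.1%), at the Chrnb1 TSS and at the neighbour of Lrp4. The LSD1 fed sites of Musk, Dok7, Hdac4 and Runx1 had no overlapping LSD1 peak in starved muscle. The share depends on the overlap rule, since 6 of the 30 (20.0%, against 30% of the list) had an LSD1 starved peak with its midpoint within 500 bp. By contrast GR starved overlapped 18 of the 30 peaks of LSD1 fed (60.0%, against 55.1%). Sites with GR in both conditions and LSD1 in fed muscle made up 10 of the 28 GR fed peaks (35.7%, 18.6 to 55.9, against 39.9%) and lay at Chrnb1, Chrng, Hdac4, Lrp4, Musk and Runx1, with 5 of them in Hdac4. The median length of LSD1 starved peaks was 103 bp at the members and in the list, and that of LSD1 fed peaks 171 and 196 bp. The part of peak length in these shares was not tested.

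At the 19 GR sites called in both conditions the fold was higher in starved muscle at 4 (21.1%, against 21.3% of the 9287 pairs), and the median ratio of starved to fed was 0.795, against 0.878. The 4 were the Musk site at 2.98 kb, the Hdac4 sites at 150 and 49.7 kb and the site at Zbtb4 in the window of Chrnb1. The lowest ratio was 0.527, at Hdac4 80.7 kb, a value that 97.4% of the pairs reached or passed. These are single values without replicates, and the lengths of the paired calls differed at several of the sites. They were 178 and 286 bp at the Musk site, but 246 and 1220 bp at Hdac4 150 kb, 247 and 1255 bp at Hdac4 80.7 kb and 205 and 1454 bp at Dok7 16.3 kb, so the folds of these last 3 pairs do not cover the same bases.

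**Figure D4:**
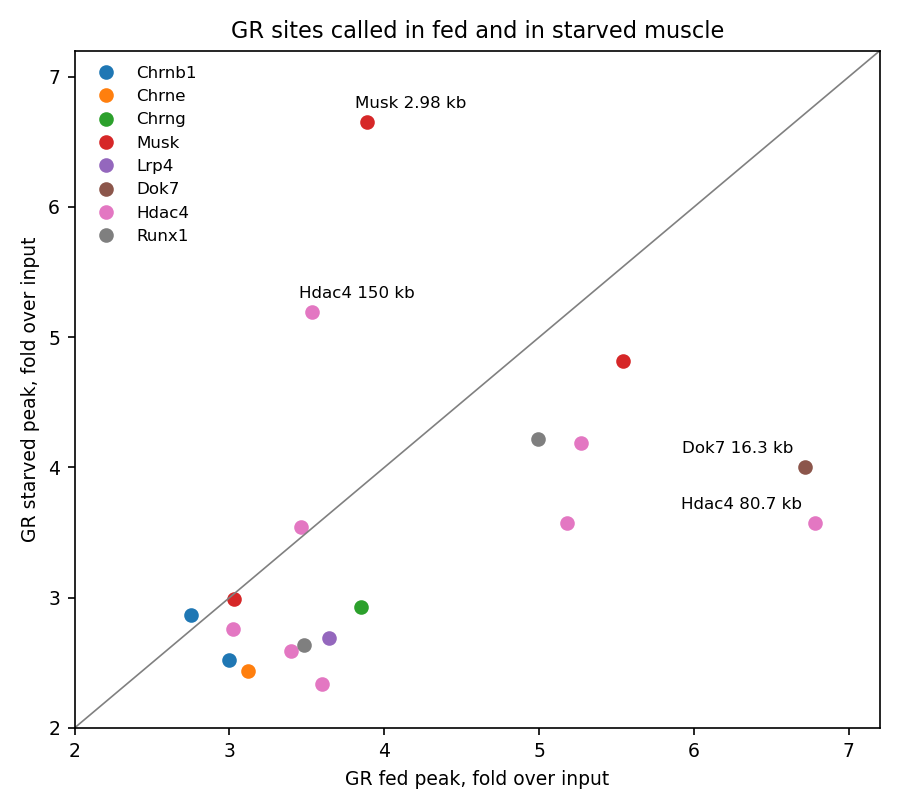
Fold enrichment over input of the 19 GR sites called in fed (x axis) and in starved muscle (y axis), coloured by gene, with the line of equal folds; each point is 1 pair of overlapping peaks from 1 library per condition. The Musk site at 2.98 kb (3.89 and 6.65) and the Hdac4 site at 150 kb (3.53 and 5.19) lie well above the line, and the Dok7 site at 16.3 kb and the Hdac4 site at 80.7 kb farthest below it.

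GR binds as a dimer to the GR response element (GRE), searched as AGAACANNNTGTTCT with at most 1 mismatch in its 12 fixed bases. No peak of the members held one, 0 of 28 GR fed and 0 of 61 GR starved peaks and 0 of 30 and 0 of 32 LSD1 peaks, which leaves room for up to 12.3%, 5.87%, 11.6% and 10.9% by exact binomial 95% intervals. Over the lists the shares were 2.17%, 0.712%, 0.392% and 0.0636%, so 0 was within counting error throughout. A search with 2 mismatches was added after the data were seen. By it 5 of the 28 GR fed peaks held one (17.9%, 6.06 to 36.9, against 9.75%). Of the 61 GR starved peaks 3 held one (4.92%, 1.03 to 13.7, against 4.33%). Of the 30 LSD1 fed peaks 3 held one (10.0%, 2.11 to 26.5, against 2.27%). Each of these intervals held the share of its list. The 5 sites follow on the plus strand, with capitals at the bases that match the element.
Hdac4 150 kb (chr1:92030664-92030678): AGAACAgtgTGTgCc
Hdac4 131 kb (chr1:92049287-92049301): gtAACAgaaTGTTCT
Runx1 85.7 kb (chr16:92611604-92611618): AGgACAtgaaGTTCT
Musk 50.4 kb (chr4:58336371-58336385): gGAgCAgctTGTTCT
Dok7 28.0 kb (chr5:35085089-35085103): AagACAgaaTGTTCT
At Hdac4 131 kb, Runx1 85.7 kb and Musk 50.4 kb the LSD1 fed peak covered the same 15 bases. The strongest GR fed peaks, at Hdac4 80.7 kb and Dok7 16.3 kb, held none.

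The half-site AGAACA, on either strand within the 200 bases around the midpoint, was present in 11 of the 28 GR fed peaks (39.3%, 21.5 to 59.4, against 20.9% of the list) and in 14 of the 61 GR starved peaks (23.0%, against 15.7%). LSD1 fed peaks held it in 4 of 30 (13.3%, against 12.3%). CAGCTG was present in 7 of the 28 GR fed peaks (25.0%, against 19.9%) and 14 of the 61 GR starved peaks (23.0%, against 16.2%), among them the sites printed from Musk 3.00 kb, Dok7 16.3 kb and Hdac4 80.7 kb. LSD1 fed peaks held CAGCTG in 6 of 30 (20.0%, against 19.7%). Of the half-site and CAGCTG shares, only that of the half-site in GR fed peaks had an interval that left out its list share. For CAGCTG the intervals were 10.7 to 44.9, 13.2 to 35.5 and 7.71 to 38.6 in GR fed, GR starved and LSD1 fed. For the other letters searched in the same windows the exact intervals also held the shares of the lists. In GR fed and GR starved peaks any E-box was at 78.6% (against 65.7%) and 63.9% (against 66.8%), the N-box at 7.14% (against 7.2%) and 6.56% (against 6.00%), TGTGGT at 14.3% (against 11.4%) and 11.5% (against 14%), and CTANNNNTAG, as read by MEF2, at 3.57% (against 4.13%) and 3.28% (against 2.85%). The half-site, CAGCTG and CTANNNNTAG searches were added after the data were seen. Of the 28 GR fed peaks 25 were intronic, whereas the list shares take in peaks at all locations. The part of location in these shares was not tested.

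H3K9me1 and H3K9me2 are the products and substrates of demethylation at lysine 9 of histone H3, and H3K9me2 is known as a mark of silent chromatin. H3K9me2 had a peak at all 10 genes in fed muscle, against 95.5% of all genes, and at Hdac4 alone in starved muscle, against 10.2%. Their numbers were 110 and 1. Per 100 kb the fed peaks came to 10.4 against 7.73 over all windows, and the windows of the receptor subunit genes, with 14.5, stood highest. Most of these peaks lay nearer to other genes. Counted per gene they numbered 45, of which 5 lay in the body of the subunit gene and 8 had its TSS nearest. At promoters H3K9me2 was called at Hdac4 in fed muscle, 1 of 10 against 22.3%, and at none in starved muscle, against 0.210%. H3K9me1 had peaks at 6 genes in fed muscle, against 38.0%, and at 8 in starved muscle, against 65.6%, with 8 and 20 peaks and none on a promoter in either condition, against 1.94% and 3.10%. The highest H3K9me1 fold was in starved muscle 13.3 kb upstream of the distal TSS of Runx1 (fold 5.87, q = 1.38e-06), in a peak of 49 bp. Both marks differ between conditions together with the library code, and the part of the code in these counts was not tested.

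Most GR and LSD1 peaks were not overlapped by a peak of either mark, at these genes as over the whole lists. H3K9me2 fed overlapped 3 of the 28 GR fed peaks (10.7%, 2.27 to 28.2, against 16.5%), at Hdac4 131 kb, in intron 1 of Lrp4 and 28.3 kb upstream of Chrne, and 2 of the 30 LSD1 fed peaks (6.67%, against 16.8%). H3K9me1 fed overlapped no GR or LSD1 peak of fed muscle at the members, against 2.27% and 2.29% of the lists, and H3K9me1 starved overlapped 1 of the 61 GR starved peaks, in Dok7, against 2.99%. The intervals of these counts held the shares of the lists.

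Of 17 other genes of the junction, from agrin to the acetylcholinesterase anchor Colq, 13 had a GR fed, 16 a GR starved, 12 an LSD1 fed and 17 an LSD1 starved peak, beside the 43.1%, 66.5%, 51.1% and 83.7% of all genes given above. GR fed promoter peaks were at Etv5, Lamb2 and Crkl. Of 10 other denervation genes 8 had a GR fed, 8 a GR starved, 8 an LSD1 fed and 10 an LSD1 starved peak, beside the same shares. Some of these windows are long, up to 1106 kb at Erbb4 and 900 kb at Hdac9. Erbb2, a neuregulin receptor gene, Myog, which encodes myogenin, and Hdac5 had the most GR fed peaks of both lists, 4 each, with 9, 5 and 10 GR starved and 5, 5 and 6 LSD1 fed peaks. Promoter peaks of GR and of LSD1 in both fed and starved muscle were called at Myog, an activator of receptor genes after denervation, and at Gadd45a. These genes were picked after the data were seen. The share of all genes with all these promoter calls was not computed, so they have no background.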

How the data were processed

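ChIP-seq libraries of skeletal muscle were made by the authors, and their processing notes name bcl2fastq 2.20.0.422. According to the study's methods reads were mapped to mm10 with Bowtie, reads with several locations were dropped, and broad peaks were called per library with MACS2 against input. Peak names in the lists carry the name of Bowtie2 instead, and the methods state a stricter false discovery rate than the lists show. Each of the 8 deposited lists gave a fold enrichment over input (a ratio), −log10 of the p-value and −log10 of the q-value per peak, and a score deposited by the authors that was not used here. The 2 input libraries entered only through the peak calls. For LSD1 in starved muscle the list holds far more peaks than the study's text gives, and more than the fed list where that text gives fewer, so it may be another version. The age in the labels also differs from that text.

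Gene models were the 45756 curated RefSeq transcripts (26180 genes) of the same build. Groups followed the labels. Peaks were assigned by midpoint, lists were compared by an overlap of at least 1 bp, and whole lists or all genes served as background. With 1 library per group no test was run. Intervals are exact 95% intervals for counts and cover counting error alone, as neighbouring peaks are not independent. Motifs were searched in the peak or in 200 bp around its midpoint on both strands. The lookups and the motif search were tested on simulated data. Python 3.11.15, pandas 2.3.3, scipy 1.17.1 and pysam 0.24.0 were used.

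All 10 genes were named, with their promoter peaks, highest-fold peaks and shared sites. Of the other junction and denervation genes those with the most GR fed peaks were named. Some others were named for their promoter peaks or long windows, or as examples. The genes, lists and rules were chosen with earlier results of these data known. Alternatives were stricter q-values, other windows, other overlap rules, fewer or more mismatches and leaving out Hdac4, of which the last and the allowance of 2 mismatches were chosen after seeing the data.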

Additional observations from a re-analysis of the deposited data

Results flagged for a closer look

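The number of H3K9me1 peaks at the 10 genes was 8 in fed and 20 in starved muscle, so that the starved count was 2.50 times the fed count, whereas that of H3K9me2 peaks was 110 and 1, with a ratio of 0.00909. Each mark was marked for a closer look because its count differed between fed and starved muscle. The counts moved in opposite directions between the same conditions. These differences were not tested, since each list is 1 library. Both marks changed library code with condition, and the part of each cannot be told apart. The whole lists moved the same way, from 14178 to 38023 peaks for H3K9me1 and from 171402 to 6624 for H3K9me2.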

How the results depend on the processing

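No paired analysis was possible because each group had 1 library. Of 124 recomputed values 64 stayed close to those reported and 60 moved by more than the limit set (1.5 times for counts, the exact interval for shares). None moved when any base of a peak in the window sufficed, or when sharing needed 50% of the shorter peak or midpoints within 500 bp. The widest of these changes was in LSD1 fed peaks with LSD1 starved, from 6.67% to 20.0% with midpoints within 500 bp. The value of 20.0% lies inside the interval of 6.67%. The counts of GRE-like sequences were already 0 in the GR and LSD1 lists with 1 mismatch allowed. Allowing no mismatch, or keeping only peaks with q-values up to 0.01, could therefore only return 0. These values are among the 64 that stayed close, but they had no room to fall and say nothing about stability. In what follows lists are in the order GR fed, GR starved, LSD1 fed, LSD1 starved, H3K9me1 fed, H3K9me1 starved, H3K9me2 fed and H3K9me2 starved.

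At a q-value of 0.01 or less, peaks at members numbered 26 in GR starved, 11 in LSD1 fed, 4 in LSD1 starved, 3 and 7 in H3K9me1, and 20 and 0 in H3K9me2, and members with a peak 4 in LSD1 starved, 2 and 5 in H3K9me1 and 0 in H3K9me2 starved. With that limit in both lists, GR fed peaks with LSD1 fed fell to 16.0% (4 of 25), GR fed peaks with GR starved to 44.0% (11 of 25), and both LSD1 shares between conditions to 0. At 1e-05 or less, peaks numbered 13, 8, 0, 0, 0, 1, 0 and 0 and members 5, 4, 0, 0, 0, 1, 0 and 0. Within 30 kb of a TSS without the gene body, peaks numbered 11, 25, 14 and 21 in the GR and LSD1 lists, 10 in H3K9me1 starved, 68 in H3K9me2 fed and 0 in H3K9me2 starved, where members were also 0. Within 10 kb they numbered 6, 15, 11, 8, 2, 4, 27 and 0, and members 4 in GR fed, 5 in LSD1 starved, 2 and 4 in H3K9me1 and 0 in H3K9me2 starved. Without Hdac4, peaks numbered 17 in GR fed, 35 in GR starved, 17 in LSD1 fed, 5 in H3K9me1 fed and 0 in H3K9me2 starved. With 2 mismatches, GRE-like sequences numbered 5, 3 and 3 in GR fed, GR starved and LSD1 fed. Fewer peaks or bases are counted under each of these rules except the last, which is wider. The depth of each library is unknown, and a site without a peak is one not called at that depth.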
